A study of Mus musculus with 9 samples.

Results

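The enzymes of glutathione and peroxide metabolism were followed at the transcript level in the ageing mouse brain. The set holds the 60 protein-coding genes of the raw count table whose symbols name a glutathione S-transferase (Gsta, Gstm, Gstk, Gsto, Gstp, Gstt or Gstz), a microsomal glutathione S-transferase, a glutathione peroxidase, an enzyme of glutathione synthesis or reduction, a peroxiredoxin, a superoxide dismutase, catalase, a thioredoxin, glutaredoxin or thioredoxin reductase, an NAD(P)H quinone oxidoreductase or a heme oxygenase, out of 49315 gene IDs in all. The rule picks genes by symbol and uses none of their values, though it was set with earlier results of these data known. PolyA-selected RNA from whole brains of male wild-type C57BL/6J mice was sequenced at 3 months (young, 5 mice) and at 33 months (old, 4 mice), and each mouse gave 1 library. The labels name no treatment, batch or litter for either group. Mice keep the replicate numbers of the labels, and values by mouse are given in the order young 1 to 5 and old 1, 3, 4 and 5, since old mouse 2 was not analysed here.

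Superoxide, which leaks from mitochondria and is made by oxidases, is turned into hydrogen peroxide by superoxide dismutases. Catalase, glutathione peroxidases and peroxiredoxins then remove the peroxide. The thioredoxin and glutathione systems return the peroxidases and peroxiredoxins to their reduced state at the expense of NADPH. Glutathione S-transferases join glutathione to reactive lipids and foreign compounds. In the brain much of this capacity is known from astrocytes, and many of the genes can be induced by the transcription factor NRF2.

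Few genes of this enzyme set were called as changed in old brain, and their share was near that of all genes. Expression of 3 members rose and of 1 fell in edgeR's quasi-likelihood test at a Benjamini-Hochberg adjusted p under 0.05 over all genes, among the 51 members that passed the filter on low counts. Gstm1 and Gstp1, which conjugate glutathione to electrophiles in the cytosol, and Prdx6, a peroxiredoxin that also reduces phospholipid hydroperoxides, rose. Sod2, the manganese superoxide dismutase of the mitochondrial matrix, fell. These 4 are 7.84% of the tested members, against 11.0% of the 18492 genes tested. The background was 6.09% for a rise and 4.89% for a fall. None of the members passed the added fold change threshold (absolute log2 fold change over 0.58), which 2.50% of all genes passed. At an unadjusted p under 0.05 the count was 18 members (35.3%), 13 higher and 5 lower in old brain, against 25.5% of all genes, and 7 members had an adjusted p between 0.05 and 0.1. DESeq2's Wald test called the same 4 members. With each mouse left out in turn 3 to 5 members were called. Without young mouse 4, whose microglia and astrocyte marker sums were above those of the other young mice, the 4 were Gstm1, Prdx6, Sod2 and Hmox1. Calls were added for Gclc (without young mouse 1), Nqo2 (young 2), Gstm7 (young 3), Hmox1 (young 4), Gstm2 and Prdx1 (old 1), Gpx8 (old 4) and Gpx1 (old 5).

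The size of the changes was small, as it was over all genes. The log2 fold change (old minus young) ran from -0.54 for Gpx8 to 0.54 for Hmox1, and 35 of the 51 lay within 0.2 of 0. A total of 29 were positive and 22 negative, and their median was 0.037, beside -9.2e-05 over all genes tested. On the log2(TPM + 1) scale, where the median of all genes was -0.14, 12 were positive and 39 negative, and relative to that median 28 and 23. The median of the absolute values was 0.12 for the members and 0.11 for all genes. For 31 members the whole 95% confidence interval lay within 0.3 of 0, so that for these a larger shift lies outside the interval. On CPM, counts scaled to a common library size after TMM normalization, the members together took 2135 to 2209 in young mice and 2197 to 2323 in old mice, and these ranges overlap. In whole-brain RNA, fewer cells of a type and less RNA per cell cannot be told apart, and this holds for every value below.

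**Figure D1:**
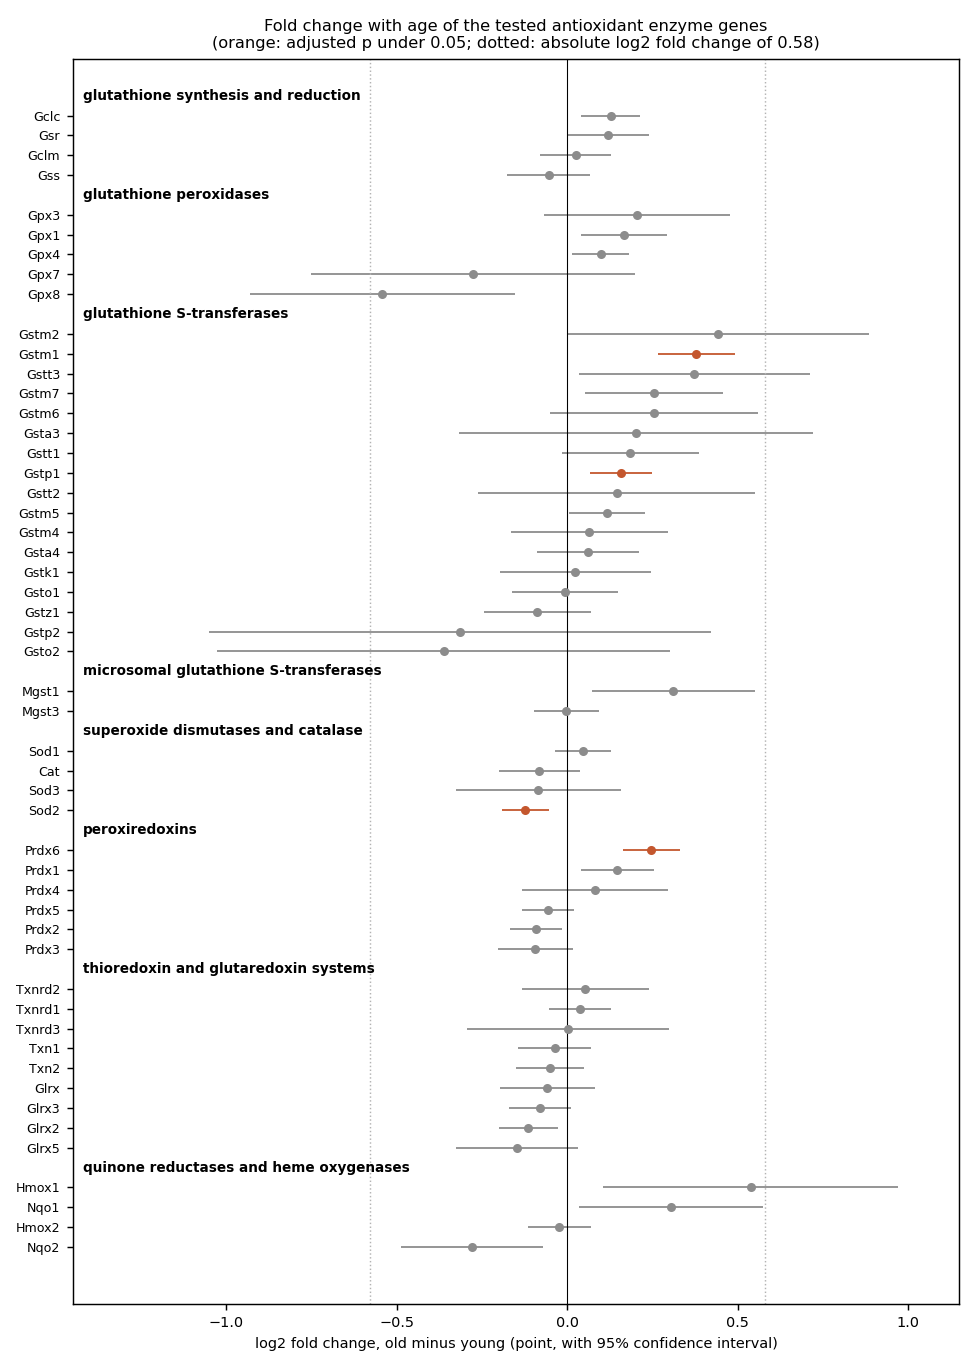
Log2 fold change (old minus young, x axis) of the 51 tested members, grouped by role on the y axis, as points with 95% confidence intervals from edgeR's quasi-likelihood fit of 5 young and 4 old mice. Gstm1, Gstp1 and Prdx6 (right of 0) and Sod2 (left of 0) are the 4 members in orange, called by edgeR at the 0.05 threshold, and no orange point lies beyond the dotted lines at an absolute value of 0.58.

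Levels of different genes were compared per length with the deposited TPM (counts divided by gene length and scaled to a common sum). Sod1, the cytosolic copper-zinc superoxide dismutase, stood highest at 509.9 ± 94.8 TPM in young and 465 ± 35.5 TPM in old mice (SD, n = 5 and 4). Gstp1 followed at 241 ± 53.0 TPM in young and 236 ± 19.9 TPM in old, Gstm1 at 207 ± 45.3 TPM in young and 237 ± 40.6 TPM in old and Gpx4 at 217 ± 41.3 TPM in young and 206 ± 24.2 TPM in old mice, and these neighbours did not differ beyond their spread. Next in order came Prdx5, Gstm5, Mgst3, Prdx2, Glrx5 and Sod2. At the lower end of the tested members Gsta3, Gsto2, Gstp2, Gstt3, Gstm2 and Gpx7 had mean TPM under 4. The SD of a TPM level in the young mice was wide, and the TPM of the whole set summed to between 2472 and 3992 there and to between 2447 and 3081 in the old mice.

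**Figure D2:**
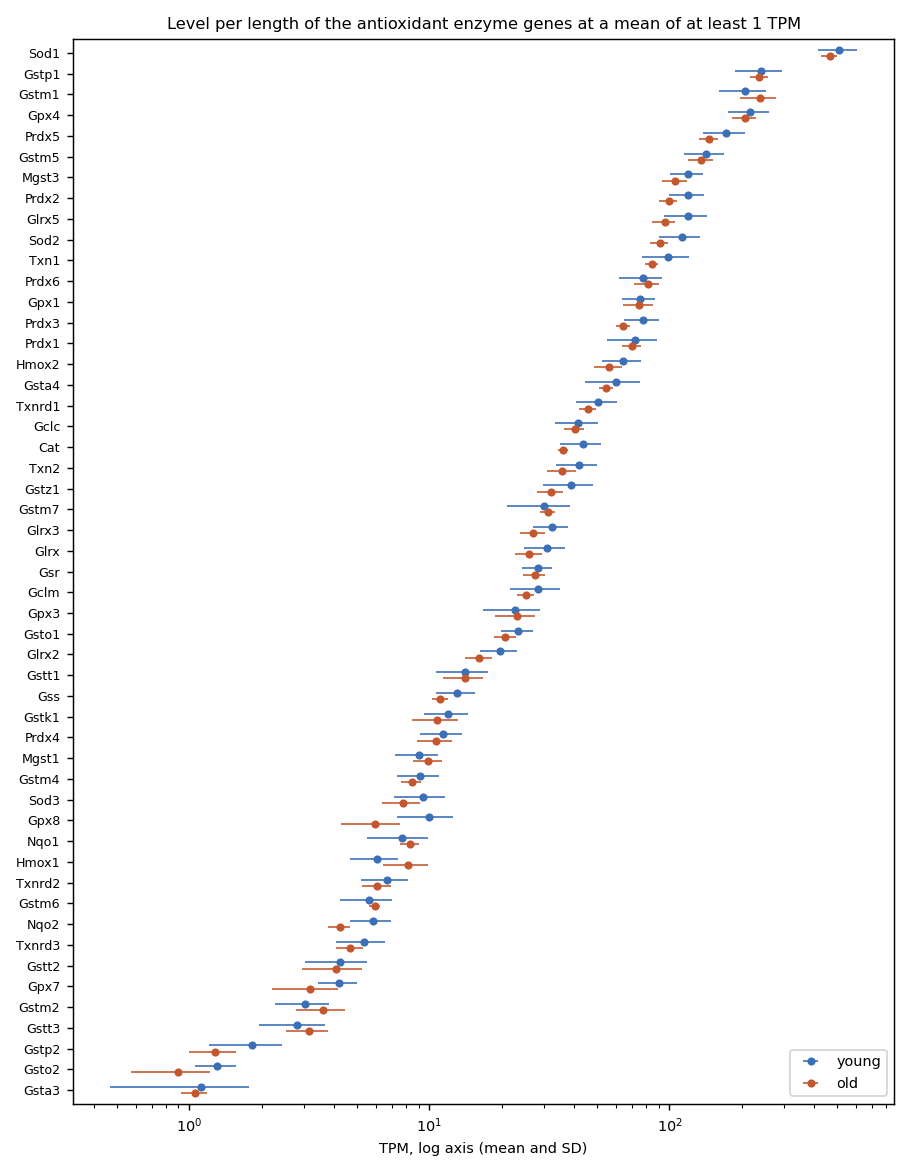
Mean and SD of the deposited TPM (x axis, log scale) in 5 young and 4 old mice for the members at a mean of at least 1 TPM, ordered by the mean over all 9 mice (y axis). Sod1 stands highest, at 509.9 ± 94.8 TPM in young and 465 ± 35.5 TPM in old mice, and Gsta3 lowest.

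A further 9 members were listed in the count table but too low to test, with between 0 and 13 counts in any library. They were Gsta1, Gsta2, Gstm3, Gstp3 and Gstt4 among the transferases, Gpx2, Gpx5 and Gpx6 among the peroxidases, and Mgst2. Several of them are known from the gut, the liver or the epididymis.

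Among the marker lists, 2 mice stood apart from the rest of their age. For young mouse 4 this was seen in glial markers. Its 8 activated microglia markers summed to 152 CPM, where the other young mice gave 86.8 to 102 and the old mice 127 to 175, its 8 homeostatic microglia markers to 309 against 227 to 254, and its 8 astrocyte markers to 5023 against 4326 to 4420. Old mouse 4 held the most blood RNA, with 5 erythroid markers at 409 CPM where other old mice gave 128 to 262 and young mice 86.1 to 116, and 4 neutrophil markers at 79.7 CPM against at most 5.68 in every other mouse. Neuronal markers, which define the tissue, ran from 5302 to 5758 CPM in young and from 5278 to 5780 in old brains, and 3 liver markers stayed at or under 1.20. No marker gene was at 0 in all libraries. Over all genes, young mouse 3 differed most from other young mice. Its counts gave chi-square values (divided by the degrees of freedom) of 15.1, 22.4 and 17.5 against young mice 2, 4 and 5, and of 7.32 against young mouse 1, where the pairs without it gave at most 12.8. The part of these differences in the results was not tested beyond leaving out each mouse.

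Glutathione S-transferases gave 2 of the 4 calls. Of the 22 genes 17 were tested, 2 rose and none fell, and the median log2 fold change was 0.14. Gstm1, a mu-class transferase that is abundant in astrocytes, stood at 113, 114, 122, 111 and 119 CPM in young mice 1 to 5. In old mice 1, 3, 4 and 5 it stood at 163, 131, 157 and 149 CPM. Every old mouse lay above every young mouse, with old mouse 3 nearest to the young range. The means were 116 ± 4.60 and 150.1 ± 13.9 CPM (SD, n = 5 and 4), a rise of 30.0% and a log2 fold change of 0.38 ± 0.054 (SE, 95% interval 0.27 to 0.49, edgeR adjusted p 0.00038). The gene (ENSMUSG00000058135) lies at chr3:108012255-108017973 on the minus strand of GRCm38, and 14.8% of the 75-base windows of its longest transcript also occur in transcripts of Gstm3 or of the pseudogenes Gstm2-ps1 and Gm8834.

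All 6 tested genes of the mu class had a positive log2 fold change, from 0.064 for Gstm4 to 0.44 for Gstm2, and 1 of them passed the test. On the log2(TPM + 1) scale 4 of the 6 were positive, and 6 of 6 were relative to the median of all genes there. Gstm7 had 14.2, 17.2, 21.2, 17.3 and 20.7 CPM in young against 20.2, 22.1, 21.8 and 22.0 CPM in old mice (log2 fold change 0.25 ± 0.095 (SE), edgeR adjusted p 0.10), and the ages overlapped through young mice 3 and 5. Gstm5, Gstm6 and Gstm2 had values of 0.12, 0.25 and 0.44 without passing. The Gstm genes stand side by side on chromosome 3 and resemble each other closely, and a read shared among them was left uncounted.

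Gstp1, the pi-class transferase of the brain, stood at 70.3, 69.4, 72.1, 64.3 and 70.6 CPM in the young mice. The old mice had 73.5, 78.8, 76.4 and 80.5 CPM. The groups did not overlap, though the gap was narrow, between young mouse 3 and old mouse 1. The rise was 11.5%, from 69.4 ± 2.96 to 77.3 ± 3.07 CPM, a log2 fold change of 0.16 ± 0.043 (SE, edgeR adjusted p 0.025). Without young mouse 4, old mouse 3 or old mouse 5 the adjusted p was 0.058, 0.061 and 0.083. Gstp1 (ENSMUSG00000060803, chr19:4035407-4037985, minus strand) shares 57.7% of its 75-base windows with Gstp2 and the pseudogene Gstp-ps, and stretches of that length do not tell these genes apart. Gstp2 itself, a much scarcer transcript (mean 0.536 CPM in young, 0.433 CPM in old brain), stood at -0.31 (edgeR adjusted p 0.62).

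Among the other transferases, all 3 tested theta-class genes (Gstt1, Gstt2, Gstt3) had positive values between 0.14 and 0.37, and 2 of the 3 were positive on the log2(TPM + 1) scale. Gstt3 shares 25.0% of its windows with other genes. The alpha-class genes Gsta3 and Gsta4 had 0.20 and 0.061, the mitochondrial and peroxisomal Gstk1 0.024, the omega-class genes Gsto1 and Gsto2 -0.0068 and -0.36, and Gstz1, which breaks down maleylacetoacetate in the tyrosine pathway, -0.088. None of these passed the test.

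**Figure D3:**
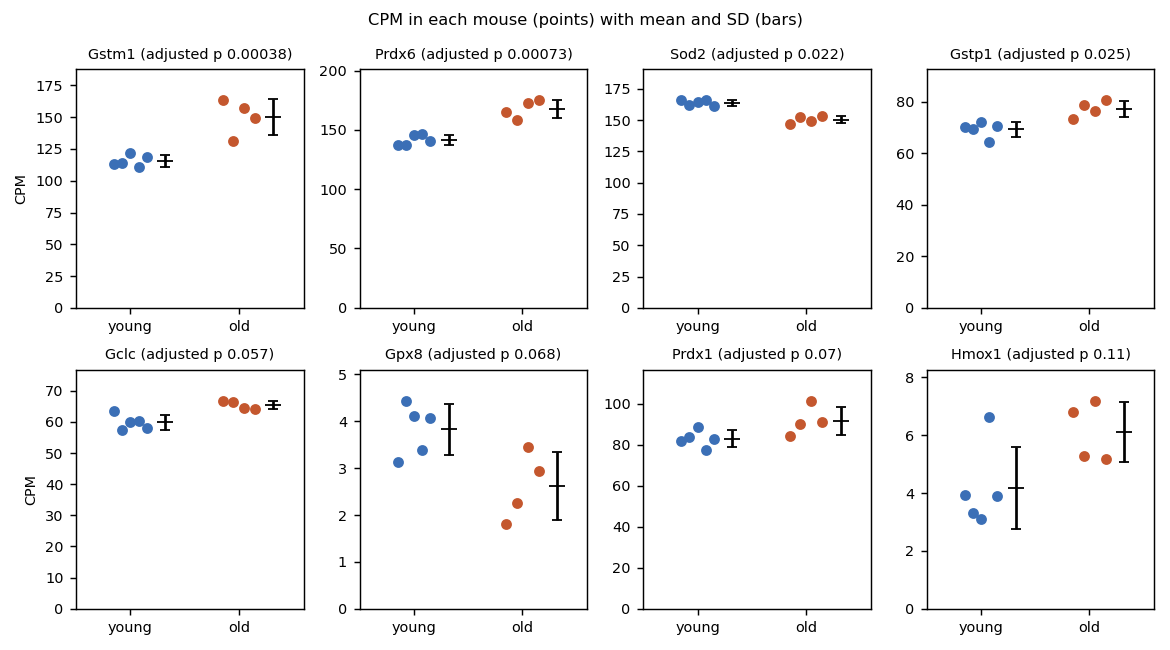
CPM (y axis, from 0) of 8 members in each of 5 young and 4 old mice as points, with the mean and SD as bars, and the adjusted p of edgeR's quasi-likelihood test above each plot. The members shown are those with the lowest p in this test, and Hmox1, so the panels were chosen for their separation. Over all tested members 11.8% had no overlap between the ages, against 12.6% of all genes tested. Old mice lie above all young mice for Gstm1, Prdx6, Gstp1 and Gclc and below them for Sod2, while Gpx8, Prdx1 and Hmox1 overlap, the last through young mouse 4 at 6.62 CPM.

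The microsomal transferases are small membrane proteins. Mgst3, the higher of both per length (TPM), had 48.9, 51.4, 47.5, 52.6 and 49.6 CPM in young against 52.3, 48.6, 49.3 and 49.5 CPM in old mice. Its log2 fold change was -0.0027 ± 0.045 (SE, 95% interval -0.097 to 0.092, edgeR adjusted p 0.98), and the ages fully overlapped. Mgst1 had 7.89, 6.75, 6.46, 5.84 and 7.78 CPM in young against 9.51, 9.24, 8.37 and 7.34 CPM in old mice, a log2 fold change of 0.31 ± 0.11 (SE, edgeR adjusted p 0.088). The old mice of Mgst1 were mostly higher, and old mouse 5 lay within the young range.

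Glutathione synthesis runs through the rate-limiting glutamate-cysteine ligase, with its catalytic subunit Gclc and its modifier Gclm, and then through glutathione synthetase (Gss), and glutathione reductase (Gsr) recycles the oxidised form. None of the 4 genes passed the test, and their median log2 fold change was 0.072. Gclc had 63.5, 57.3, 60.1, 60.2 and 58.1 CPM in young against 66.6, 66.3, 64.5 and 64.2 CPM in old mice. The ages did not overlap, with young mouse 1 just below old mouse 5. Its log2 fold change of 0.13 ± 0.041 (SE, 95% interval 0.040 to 0.21) had an adjusted p of 0.057 in edgeR's test, and of 0.034 without young mouse 1. Gsr had 30.6, 32.3, 26.8, 30.0 and 30.2 CPM in young against 32.3, 31.2, 34.6 and 32.2 CPM in old mice (log2 fold change 0.12 ± 0.057 (SE), edgeR adjusted p 0.20), with overlap between the ages. Gclm and Gss stood at 0.024 (95% interval -0.081 to 0.13) and -0.055 (95% interval -0.18 to 0.067), and both share exonic bases with a gene on the opposite strand.

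Glutathione peroxidases reduce hydrogen peroxide and lipid hydroperoxides. Of the 8 genes 5 were tested and none passed. Gpx4, which protects membranes against lipid peroxidation and ferroptosis, had 138, 150.5, 143, 138 and 146 CPM in young against 155, 145, 157 and 154 CPM in old mice. Its log2 fold change was 0.097 ± 0.039 (SE, edgeR adjusted p 0.12), with 3 of the 4 old mice above all young mice. Pseudogene transcripts hold 55.3% of its 75-base windows. Gpx1, the cytosolic form that is also abundant in red blood cells, had 40.6, 43.7, 39.3, 42.3 and 41.3 CPM in young against 48.7, 43.2, 51.8 and 42.1 CPM in old mice. Old mice 4 and 1, the highest for Gpx1, were also the highest for the erythroid markers, at 409 and 262 CPM. Prdx2, also abundant in red blood cells, was highest among the old mice in old mouse 4 (134 CPM). It was lowest of all mice in old mouse 1 (126 CPM). The part of blood RNA in Gpx1 was not tested. The log2 fold change of Gpx1 was 0.17 ± 0.060 (SE, edgeR adjusted p 0.082), and without old mouse 4 it was 0.11 (edgeR adjusted p 0.27). Gpx3, the secreted plasma form, had 0.20. Gpx7 and Gpx8, which act in the endoplasmic reticulum, were the lower ones. Gpx8 had 3.14, 4.43, 4.12, 3.38 and 4.08 CPM in young against 1.81, 2.26, 3.45 and 2.93 CPM in old mice (log2 fold change -0.54 ± 0.18 (SE), edgeR adjusted p 0.068), the lowest log2 fold change of the tested members, with overlap through old mouse 4.

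The superoxide dismutases and catalase gave the fall among the 4 calls. Sod2 (ENSMUSG00000006818, chr17:13006846-13040063, plus strand) stood at 166, 162, 164, 166 and 161 CPM in the young mice and at 147, 152, 149 and 153 CPM in old mice. The young values lay within 5 CPM of each other, and every old mouse was below all of them. The means were 164 ± 2.14 and 150.4 ± 2.90 CPM (SD, n = 5 and 4), and the log2 fold change was -0.12 ± 0.033 (SE, 95% interval -0.19 to -0.054, edgeR adjusted p 0.022). Without young mouse 1, old mouse 1 or old mouse 4 the adjusted p was 0.056, 0.070 and 0.055, and with the replicate number as a block it was 0.055. Sod1 had 121, 134, 124, 121 and 128 CPM in young against 128, 131, 133 and 127 CPM in old mice, a log2 fold change of 0.046 ± 0.039 (SE, 95% interval -0.036 to 0.13, edgeR adjusted p 0.50). Catalase (Cat), the peroxisomal enzyme, stood at -0.082 and the extracellular Sod3 at -0.085, and neither passed.

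Peroxiredoxins reduce peroxides through a reactive cysteine. Of the 6 genes, 3 had positive and 3 negative log2 fold changes (1 and 5 on the log2(TPM + 1) scale, 3 and 3 relative to the median of all genes there), and Prdx6 passed the test. Prdx6 (ENSMUSG00000026701, chr1:161240112-161251219, minus strand) stood at 137, 137, 146, 146 and 140.3 CPM in the young mice. The old mice had 165, 158, 173 and 175 CPM. No old mouse overlapped the young range. The rise was 18.7%, from 141 ± 4.56 to 168 ± 7.51 CPM (SD, n = 5 and 4), a log2 fold change of 0.25 ± 0.039 (SE, 95% interval 0.16 to 0.33, edgeR adjusted p 0.00073). Gstm1 and Prdx6 were the members called with any of the 9 mice left out.

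Prdx1, a cytosolic peroxiredoxin, had 81.9, 83.7, 88.5, 77.1 and 82.8 CPM in young against 84.4, 89.9, 101 and 91.0 CPM in old mice, a log2 fold change of 0.15 ± 0.051 (SE, edgeR adjusted p 0.070). Old mouse 4 was highest, and without it the log2 fold change was 0.096 (edgeR adjusted p 0.23). Old mouse 1 lay within the young range. Prdx5, found in mitochondria and peroxisomes, had 135, 141, 144, 141 and 142 CPM in young against 133, 133, 141 and 133 CPM in old mice (log2 fold change -0.057 ± 0.036 (SE), edgeR adjusted p 0.35). Prdx2, which is abundant in neurons and in red blood cells, had 139.9, 144, 133, 138 and 141 CPM in young against 126, 130.1, 134 and 132 CPM in old mice (log2 fold change -0.092 ± 0.036 (SE), edgeR adjusted p 0.11). Both overlapped between the ages. Exons of Prdx5 and Prdx2 overlap genes on the opposite strand (Trmt112, and Junb and Rnaseh2a). The mitochondrial Prdx3 and the secretory-pathway Prdx4 stood at -0.094 and 0.082.

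The thioredoxin and glutaredoxin systems, which reduce protein disulfides, gave no call. None of the 9 genes passed the test, 6 of the 9 log2 fold changes were negative (9 of 9 on the log2(TPM + 1) scale, 6 of 9 relative to the median of all genes there), and the median was -0.050. Txn1, the cytosolic thioredoxin, had 38.8, 40.2, 41.2, 36.8 and 40.2 CPM in young against 36.1, 40.6, 38.0 and 39.2 CPM in old mice (log2 fold change -0.037 ± 0.051 (SE), 95% interval -0.14 to 0.070, edgeR adjusted p 0.70). Glrx5, a mitochondrial glutaredoxin of iron-sulfur cluster assembly, had 38.3, 52.8, 39.2, 39.6 and 41.8 CPM in young against 39.3, 37.2, 38.8 and 37.7 CPM in old mice (log2 fold change -0.15 ± 0.083 (SE), edgeR adjusted p 0.29). Young mouse 2 lay above all other mice, without it the log2 fold change was -0.050 (edgeR adjusted p 0.57), and the rest overlapped between the ages. Glrx2, the other mitochondrial glutaredoxin, had 67.8, 66.2, 64.2, 67.3 and 64.2 CPM in young against 63.1, 57.3, 62.2 and 61.0 CPM in old mice without overlap, at a log2 fold change of -0.11 (edgeR adjusted p 0.085). The remaining genes (Glrx, Glrx3, Txn2, Txnrd1, Txnrd2, Txnrd3) lay between -0.079 for Glrx3 and 0.053 for Txnrd2. In all, 6 members (11.8%) had no overlap between the ages, Gstm1, Prdx6, Gstp1 and Gclc above and Sod2 and Glrx2 below, against 12.6% of all genes tested.

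Nqo1 reduces quinones with NADPH, and Hmox1 is the inducible and Hmox2 the constitutive heme oxygenase. Hmox1 had 3.92, 3.32, 3.09, 6.62 and 3.89 CPM in young against 6.80, 5.29, 7.17 and 5.17 CPM in old mice, the highest log2 fold change of the members at 0.54 ± 0.20 (SE, 95% interval 0.10 to 0.97), with an adjusted p of 0.11 in edgeR's test. Young mouse 4, which also had high glial markers, stood among the old mice. Without it the log2 fold change was 0.78 and the adjusted p 0.0022. Hmox2 had 55.5, 53.3, 53.7, 55.0 and 53.4 CPM in young against 57.4, 51.8, 52.3 and 51.5 CPM in old mice (log2 fold change -0.024 ± 0.044 (SE), 95% interval -0.12 to 0.069, edgeR adjusted p 0.79). Nqo1 had 4.02, 4.26, 5.15, 3.82 and 5.37 CPM in young against 5.05, 5.50, 5.91 and 5.75 CPM in old mice (log2 fold change 0.30 ± 0.13 (SE), edgeR adjusted p 0.14), with overlap. The paralog Nqo2 had the opposite sign, -0.28 (edgeR adjusted p 0.079), from 9.36, 7.47, 8.73, 9.81 and 8.65 CPM in young against 7.12, 6.91, 7.82 and 7.16 CPM in old mice, and its exons overlap Serpinb6a on the other strand. Exons of Hmox2 overlap Cdip1 on the other strand, over 892 of its 2217 exonic bases. None of the 4 genes passed the test.

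Promoter sequence was read for the members that passed the test or had the highest absolute log2 fold change, to show what lies before their start sites. RefSeq promoters (GRCm38.p6, 250 bases before to 50 after a start) were given for 53 of the 60 members and for Gstm1, Gstp1, Sod2 and Gpx8 among these 6, with none for Prdx6 and Hmox1. The antioxidant response element core, TGACNNNGC, to which NRF2 and small MAF proteins bind, was searched on both strands. It was not found in the promoters of Gstm1, Gstp1, Sod2 or Gpx8. Sequence outside these promoters was not searched. Stretches before the RefSeq starts of Gstm1, Sod2 and Gpx8, outside annotated exons, are given next. Those of Sod2 and Gpx8 end 23 bases before the start, and that of Sod2 lies within its annotated gene span. All are in lower case since they hold no match to the core.
Gstm1, chr3:108017974-108018173, - strand: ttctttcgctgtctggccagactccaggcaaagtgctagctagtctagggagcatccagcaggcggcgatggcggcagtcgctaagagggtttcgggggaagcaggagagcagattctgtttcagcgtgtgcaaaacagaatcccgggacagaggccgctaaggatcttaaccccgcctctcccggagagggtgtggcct
Sod2, chr17:13007617-13007816, + strand: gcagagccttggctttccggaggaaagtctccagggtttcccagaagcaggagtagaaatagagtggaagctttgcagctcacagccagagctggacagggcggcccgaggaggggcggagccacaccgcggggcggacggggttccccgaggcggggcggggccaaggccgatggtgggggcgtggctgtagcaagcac
Gpx8, chr13:113046411-113046610, - strand: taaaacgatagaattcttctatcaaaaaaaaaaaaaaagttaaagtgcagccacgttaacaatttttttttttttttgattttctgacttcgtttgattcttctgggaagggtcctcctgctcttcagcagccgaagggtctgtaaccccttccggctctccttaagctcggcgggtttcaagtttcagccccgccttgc

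The spelling TGAGNNNGC, searched after the promoters were seen, was found in the Gstp1 promoter 74 and 9 bases before the RefSeq start, and the Gstp2 promoter holds the same 9 letters as the first of these. The windows of this shared match are shown because the pair also shares reads, with the match in capitals.
Gstp1, chr19:4037963-4038001, - strand: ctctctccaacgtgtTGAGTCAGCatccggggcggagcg
Gstp2, chr19:4042287-4042325, - strand: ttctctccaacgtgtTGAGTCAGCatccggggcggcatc

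In all, 8 of the 53 members (15.1%) held TGACNNNGC in a promoter, against 14.0% of all genes with a promoter, or 10.8% of 74 member promoters against 12.4% of all promoters. The spelling TGAGNNNGC was found in 14.9% of the member promoters and 17.6% of all promoters, and matches of both spellings overlapped in 0 of the member promoters. The 8 members are shown here although they lie outside the rule for printed sequences, because none of them passed the test. The match is in capitals and reads on the other strand where it begins with GC.
Gclm, chr3:122245408-122245446, + strand: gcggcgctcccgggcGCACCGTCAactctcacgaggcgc
Gsta3, chr1:21240449-21240487, + strand: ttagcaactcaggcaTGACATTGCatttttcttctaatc
Gstm5, chr3:107895797-107895835, + strand: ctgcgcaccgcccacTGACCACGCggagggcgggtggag
Gstm7, chr3:107931720-107931758, - strand: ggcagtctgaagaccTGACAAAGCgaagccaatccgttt
Mgst1, chr6:138140456-138140494, + strand: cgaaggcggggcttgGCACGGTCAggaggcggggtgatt
Prdx1, chr4:116685451-116685489, + strand: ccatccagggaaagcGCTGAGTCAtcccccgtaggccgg
Sod1, chr16:90220691-90220729, + strand: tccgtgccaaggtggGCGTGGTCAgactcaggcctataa
Txnrd1, chr10:82859099-82859137, + strand: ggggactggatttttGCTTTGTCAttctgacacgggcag
Their log2 fold changes were 0.024 for Gclm, 0.20 for Gsta3, 0.12 for Gstm5, 0.25 for Gstm7, 0.31 for Mgst1, 0.15 for Prdx1, 0.046 for Sod1 and 0.037 for Txnrd1. A match is a description of letters and not evidence of binding in these brains.

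The regulators of the pathway were compared in the same fit. NRF2 (Nfe2l2) binds DNA with a small MAF protein and is held down by KEAP1 with the CUL3 ubiquitin ligase. Of 10 regulator genes 3 rose and 1 fell, where 6.09% of all genes tested rose and 4.89% fell. Besides the genes described below, the list held Nfe2l1, Bach1, Bach2 and Sqstm1, which did not pass. Nfe2l2 had 15.5, 15.3, 15.7, 20.7 and 19.0 CPM in young against 21.8, 21.1, 27.1 and 21.6 CPM in old mice, a log2 fold change of 0.41 (edgeR adjusted p 0.019). All 4 old mice lay above the young ones, the nearest being young mouse 4. Without young mouse 3 it was not called. Among the small MAF genes Mafk rose by 0.34 and Maff by 0.60 on the log2 scale (edgeR adjusted p 0.0036 and 0.016), while Mafg did not pass, and Maff was not called without old mouse 4. Cul3 had a log2 fold change of -0.11 (edgeR adjusted p 0.0496) and was called with 1 of the 9 mice left out (young mouse 2). Keap1 stood at 0.055 (edgeR adjusted p 0.54).

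Genes that feed the enzymes were read against the 11.0% of all genes called. Of 15 tested genes of glutathione precursor supply, export and breakdown none passed, and their median log2 fold change was 0.028, while Cbs and Slc3a2 were called without young mouse 2 and Cbs without old mouse 3, with the replicate block and without the filter on low counts. Of 13 genes of NADPH supply 2 rose and 1 fell. Idh2, the mitochondrial NADP-dependent isocitrate dehydrogenase, rose from 30.5 ± 1.51 to 38.9 ± 3.70 CPM (0.36 in log2, edgeR adjusted p 0.0015) and Me3, a mitochondrial malic enzyme, from 44.2 ± 2.14 to 51.9 ± 4.18 CPM (0.23 in log2, edgeR adjusted p 0.013). Idh1, the cytosolic counterpart of Idh2, fell from 37.8 ± 2.77 to 32.4 ± 2.0 CPM (-0.23 in log2, edgeR adjusted p 0.021). Idh2 was called with any of the 9 mice left out, Me3 was not without old mouse 5, and Idh1 was not without young mouse 1, old mouse 1 or old mouse 5.

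Of 32 other antioxidant and repair genes 3 rose and none fell, with a median of 0.0074. Txnip, which binds and inhibits thioredoxin, rose by 0.56, the selenium carrier Selenop by 0.30 and the paraoxonase Pon2 by 0.27 on the log2 scale (edgeR adjusted p 0.021, 0.0030 and 0.0015), and Txnip was not called without young mouse 3 or old mouse 1. On the log2(TPM + 1) scale no gene of the NRF2, precursor, NADPH and repair lists was called. Sources of reactive oxygen had the largest median of these lists. Of 12 tested genes 4 rose and none fell, and the median log2 fold change was 0.55. They were the subunits of the phagocyte NADPH oxidase Ncf4, Cyba and Ncf1, at 1.31, 0.87 and 0.74, and xanthine dehydrogenase (Xdh) at 1.27 (edgeR adjusted p 0.0099, 0.040, 0.018 and 0.016). The oxidase genes are known from microglia and neutrophils. The 8 activated microglia markers had a median log2 fold change of 1.10, 3 of them rose, and their sums overlapped between the ages through young mouse 4. Without that mouse 7 of the 8 rose and the median was 2.90. The 3 tested neutrophil markers had a median of 4.0, and the count called was 0 by edgeR with robust estimation and by DESeq2, 3 (Ngp, S100a8 and S100a9) by edgeR without robust estimation and on log2(TPM + 1), and 1 (S100a9, with a list median of 1.28) without old mouse 4. Without young mouse 4, which had high microglial markers, 6 of the 12 rose and the median was 0.78, and without old mouse 4, which had high neutrophil markers, 2 rose (Ncf1 and Xdh) and the median was 0.31. Cyba was called with 2 of the 9 mice left out (young mouse 4, old mouse 3). The part of these cells in the values was not tested.

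**Figure D4:**
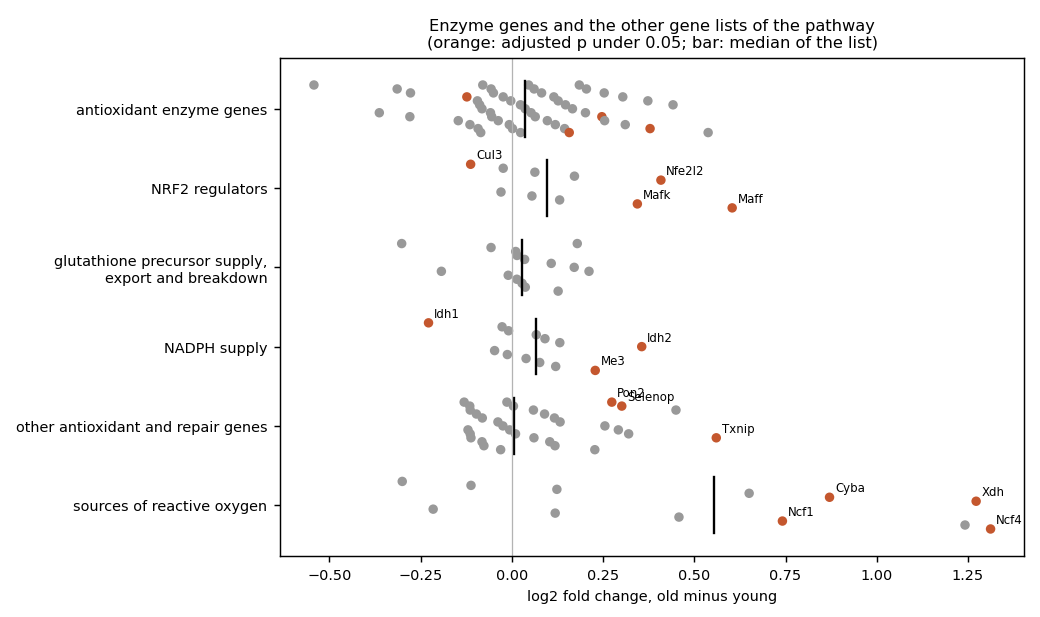
Log2 fold change (old minus young, x axis) of each tested gene of the enzyme set and of 5 further lists of the pathway (y axis), in 5 young and 4 old mice. Orange points were called by edgeR at the 0.05 threshold and bars mark list medians, which lie at 0.037 for the enzymes and at 0.55 for the sources of reactive oxygen.

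Markers of the cell types of the brain were counted in the same fit. Of 8 astrocyte markers none passed in edgeR's test, their median log2 fold change was 0.053, and their sum ran from 4326 to 5023 CPM in young brains and from 4807 to 5034 CPM in old brains, overlapping through young mouse 4. DESeq2 called 3 of these, Gfap and Gjb6 as higher and Gja1 as lower. Gfap was also called as higher on log2(TPM + 1) and log2(TPM + 0.1), without young mouse 4 and without robust estimation. Gjb6 was also called as higher without old mouse 3 or old mouse 5, and Gja1 as lower without young mouse 2. Without the filter on low counts Gjb6 and Gja1 were called. The 8 homeostatic microglia markers had a median of 0.33, and 2 rose, or 5 without young mouse 4 and 4 without robust estimation. Of 6 endothelial markers 4 rose, with a median of 0.26 and sums of 220.4 to 231 CPM in young brains and 254 to 293 CPM in old brains, which did not overlap, and 2 rose without young mouse 1 or old mouse 4. Of 5 erythroid markers 3 rose, with a median of 1.26. That count was 5 by DESeq2 and without robust estimation, 1 with the replicate block, without young mouse 5, old mouse 4 or old mouse 5, and 0 without the filter on low counts or without any of young mice 1 to 4 or old mouse 1, while the median with a mouse left out lay between 0.82 and 1.49. Neuron markers had a median of -0.021 with 1 of 8 falling, and 2 of 4 oligodendrocyte precursor markers fell (Gpr17 and Neu4, the latter not called by DESeq2 or with 7 of the 9 mice left out). Of the 8 oligodendrocyte markers 2 rose and 1 fell, and 1 marker each fell for choroid plexus and ependyma. No marker of mural cells, meningeal fibroblasts or liver passed in edgeR's test or by DESeq2, while Pdgfrb (mural cells) was called without young mouse 4, and Slc22a6 and Col1a1 (meningeal fibroblasts) without old mouse 1 and old mouse 4. The part of these cell types in the members' values was not tested.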

How the data were processed

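PolyA-selected RNA of 5 young and 4 old whole brains was sequenced, and the authors trimmed the reads with Trimmomatic, aligned them to GRCm38 with STAR and let featureCounts sum the reads that mapped uniquely to exons. The strand setting of the counting is not given in the sources used here for these libraries. The authors deposited raw counts per Ensembl gene, TPM values, and normalized counts, a signal in which each library's counts were divided by a size factor (17994 genes). Of the columns, 1 in each table matched no sample and was not used. Libraries held 14229259 to 21150439 counts. Libraries of an age differed by more than counting noise (chi-square per degree of freedom at least 4.09), so none looked like the same library deposited again. These values cannot show that libraries came from different mice. Each library was taken as 1 mouse and 1 replicate from the labels and from the paper, which counts biological replicates.

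Groups were taken from the labels. Counts were filtered with filterByExpr (minimum count 10, minimum total count 15), scaled with TMM and tested between the ages with edgeR 4.0.16 (quasi-likelihood test, robust estimation, Benjamini-Hochberg adjustment over 18492 genes) in R 4.3.3. The script was tested on simulated data. CPM used TMM library sizes, and a fold change of counts used no pseudocount beyond edgeR's own. Alternatives were DESeq2 1.42.0, other size factors, no filter, limma 3.58.1 on log2(TPM + 1), log2(TPM + 0.1) and log2(normalized count + 1), a replicate block and each mouse left out in turn, and a fit without robust estimation was added after seeing the data. The main fit did not treat equal replicate numbers as pairs, and the labels do not say whether they mark pairs. The deviations of same-numbered young and old mice correlated at 0.17, -0.12, 0.088 and -0.024 for replicates 1, 3, 4 and 5. These values had no reference to be read against and cannot decide whether the mice were paired. Symbols came from GENCODE M21, which held 48970 of the IDs and not 345. Shared windows were 75 bases long, and reads were 150 bases. Members and lists were chosen with earlier results of these data known. Named genes were the members called, the 2 with the highest TPM of each role and the called genes of the other lists, and a further 6 members given by mouse, Gstm7, Gpx8, Prdx1, Glrx2, Nqo2 and Hmox1, were chosen after their values were seen.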

Additional observations from a re-analysis of the deposited data

Results flagged for a closer look

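A search for single mice that stood apart within an age covered the 51 tested members in 102 groups of mice, with the ratio of its gap to the nearest mouse over the range of the group on the log2 CPM scale (prior count 2). Chance gives about 5.1 such cases and 6 were found, so a single case carries little weight, and 0 of them were in young mouse 4. Among the old mice, old mouse 1 was high for Hmox2 (57.4 CPM against 51.5 to 52.3, ratio 0.872) and for Gsto1 (18.1 against 17.3 to 17.4 CPM, ratio 0.901) and low for Gstm7 (20.2 against 21.8 to 22.1 CPM, ratio 0.844). Old mouse 4 was high for Prdx5 (141 against 132.7 to 133 CPM, ratio 0.950), and old mouse 5 low for Gstt2 (1.47 against 2.61 to 2.87 CPM, ratio 0.857). Young mouse 2 was high for Glrx5 (52.8 against 38.3 to 41.8 CPM, ratio 0.727). None of these 6 members was called.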

How the results depend on the processing

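The count of 4 called members was the same by DESeq2, with other size factors and without robust estimation. It was 9 without the filter on low counts, 2 on log2(normalized count + 1), 1 on log2(TPM + 1) (Gpx8) and 0 on log2(TPM + 0.1), and 3 to 5 with each mouse left out. The count past both thresholds, 0, was 1 on log2(TPM + 1) (Gpx8) and 0 to 1 with each mouse left out, being 1 without young mouse 4 (Hmox1), old mouse 1 or old mouse 4. On the log2(TPM + 1) and log2(TPM + 0.1) scales the median of all genes was -0.14 and -0.16, that of the members -0.13 and -0.13, and the members' median relative to all genes was 0.016 on the first. There 12 members were positive in place of 29 on the first scale, and the signs that turned included those of Prdx1 (-0.021 and -0.021), Gstp1 (-0.0078 and -0.0078), Gpx4 (-0.068 and -0.068), Gpx1 (-0.0043 and -0.0043), Gclc (-0.036 and -0.036), Gsr (-0.042 and -0.043) and Sod1 (-0.12 and -0.12), and relative to all genes each of these was positive, such as 0.13 for Gstp1 on the first. Gstm1 and Prdx6 were positive and not called on these scales, and the cause was not tested. Mgst3, near 0, was 0.0080 with the block and -0.023 to 0.016 with each mouse left out. With the replicate number as a block, 5 members were called, Gstm1, Gstp1 and Prdx6 among them with Hmox1 and Nqo2, and Sod2 had an adjusted p of 0.055. Whether the numbers pair the mice is not known, and only the old mouse numbered 1 correlated best with its own number. Precision is limited by 5 and 4 mice, with a median standard error of 0.071 over the members, and the low members (Gsta3, Gsto2, Gstp2) have wide intervals.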
